A study of Rattus with 6 samples.

Results

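The 6 genes described here encode the platelet-derived growth factors (PDGFs) and their receptors. They comprise the ligand genes Pdgfa, Pdgfb, Pdgfc and Pdgfd and the receptor genes Pdgfra and Pdgfrb, taken by gene name from a deposited table of 54012 genes. All 6 were found, each in a single row. Per the labels the cultures are primary vascular smooth muscle cells from aorta, the cell type that gives arteries their tone. The si-CDCP1 group (3 libraries) carries the genotype label of a CDCP1 knockdown by siRNA, and the si-NC group (3 libraries) received a control siRNA and is labelled wild type. All 6 cultures were also given angiotensin II (Ang II), a vasoconstrictor peptide, after the knockdown, so that no value describes cells without it. The dose and duration of Ang II, the animal's age and the number of isolations are not in the labels, and a primary culture no longer has the blood flow or the neighbouring cells of the vessel. If the replicates are not separate cultures, the p-values measure only technical spread.

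PDGFs are secreted dimers that act on receptor tyrosine kinases at the cell surface. PDGF-A and PDGF-C act mainly through the alpha receptor, PDGF-D mainly through the beta receptor, and PDGF-B through both. In the artery wall PDGF-B from endothelium and platelets is known to drive migration and proliferation of smooth muscle cells through the beta receptor, and the alpha receptor is widely used as a marker of fibroblasts. PDGF-A and PDGF-B are processed inside the cell, whereas PDGF-C and PDGF-D are secreted with a CUB domain that extracellular proteases must remove.

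Each library held between 16050517 and 19771638 reads in listed genes, recovered as whole numbers from the deposited FPKM (fragments per kilobase of gene, scaled by library size). The samples are labelled rat, whereas the genes are mouse genes on the mouse build mm10. Mouse cells and rat reads placed on the mouse build cannot be told apart here, so that a low value need not mean little transcript. Nor need the order of genes by FPKM be their order by amount of transcript. The knockdown could not be checked. Cdcp1, which encodes the targeted transmembrane glycoprotein, had 0, 0.0453 and 0 FPKM in the 3 si-CDCP1 libraries and 0.0147, 0.0181 and 0.00827 FPKM in the 3 si-NC libraries, that is 5 reads in each group. The read shares stood at a ratio of 1.10; its exact binomial 95% interval, from 0.254 to 4.79, covers counting error only. One library stood apart: si-CDCP1 replicate 3 had Pearson correlations with the other 5 of at most 0.983 over log2 values, while each of the others reached at least 0.99 with another library. In that library all 6 PDGF genes lay outside the range of the other 5 libraries, Pdgfrb and Pdgfc above it and Pdgfra, Pdgfa, Pdgfd and Pdgfb below it. Among the 13654 genes that averaged 0.5 FPKM or more, 61.6% did the same.

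The summed FPKM of the receptor genes exceeded that of the ligand genes in every library. The summed level of the 2 receptors was 39.4 ± 1.07 FPKM in si-CDCP1 and 41.6 ± 1.09 FPKM in si-NC, and that of the 4 ligands was 11.9 ± 1.52 FPKM in si-CDCP1 and 12.5 ± 0.585 FPKM in si-NC (SD, n = 3 each). By mean FPKM over the 6 libraries the order was Pdgfrb, Pdgfra, Pdgfa, Pdgfd, Pdgfc and Pdgfb, and it held in all 6 libraries. Pdgfa and Pdgfd were the only neighbours in this order whose ranges over the libraries overlapped. Pdgfrb, at 31.0 FPKM, stood 3.25-fold above Pdgfra, and Pdgfd stood 4.72-fold above Pdgfc.

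**Figure D1:**
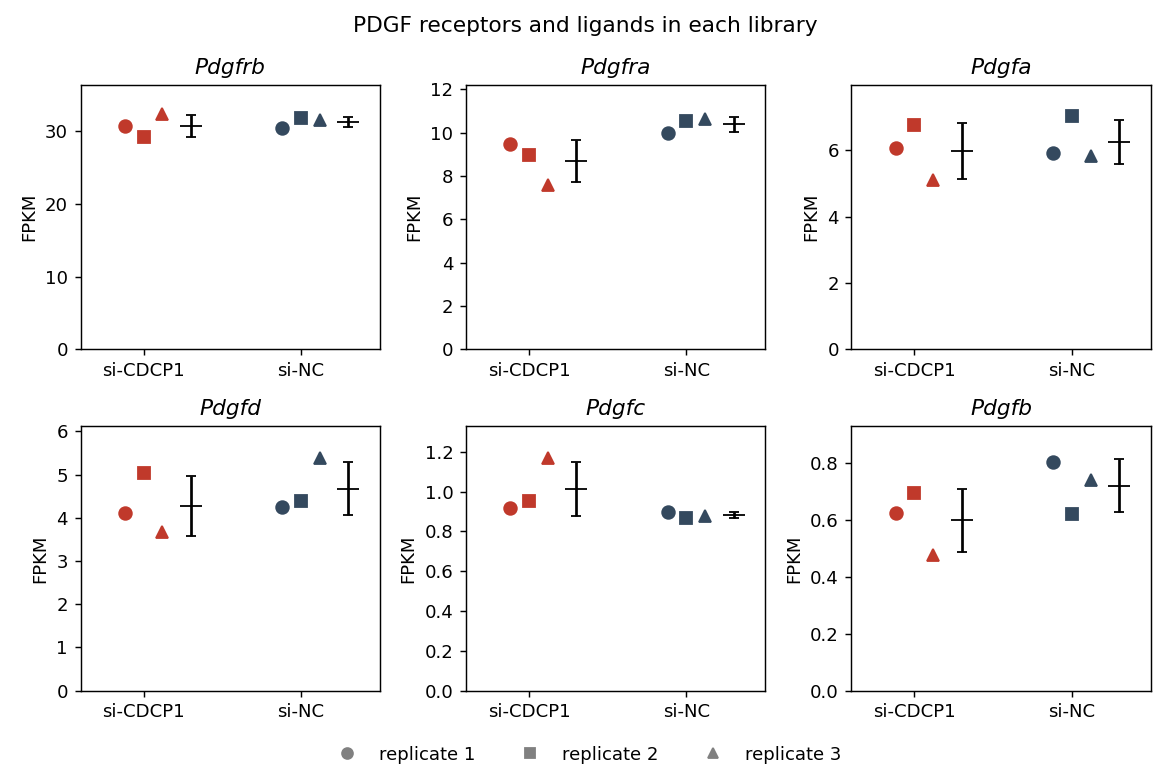
FPKM of each PDGF gene (vertical axes, from 0, a scale of its own for each gene) in the 3 si-CDCP1 and the 3 si-NC libraries, with replicates by symbol and the mean and SD as a black bar. The Pdgfra points of the groups do not overlap, nor do those of Pdgfc, and the si-CDCP1 replicate 3 triangle lies at an end of the range for each gene.

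Pdgfrb, the beta receptor gene (ENSMUSG00000024620, mm10 chromosome 18, 61045150 to 61085061, plus strand), had the highest FPKM of the family. It had 30.7, 29.2 and 32.3 FPKM in si-CDCP1 libraries 1, 2 and 3, against 30.4, 31.8 and 31.5 FPKM in si-NC libraries 1, 2 and 3. The groups overlapped, and all 6 values lay within a narrow band. The means were 30.7 ± 1.55 FPKM in si-CDCP1 and 31.2 ± 0.748 FPKM in si-NC (SD, n = 3 each), on 2606 to 3343 reads per library. On the log2(FPKM + 1) scale the difference was -0.02 (SE 0.053), with a 95% interval from -0.15 to 0.10 (limma, adjusted p = 0.847 over the 12080 genes that averaged 1 FPKM or more). Its level exceeded that of 85% of those 12080 genes.

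Pdgfra, the alpha receptor gene (ENSMUSG00000029231, mm10 chromosome 5, 75152292 to 75198215, plus strand), had lower values in every si-CDCP1 library than in any si-NC library. It stood at 9.49, 8.98 and 7.59 FPKM in si-CDCP1 libraries 1, 2 and 3, against 9.97, 10.5 and 10.6 FPKM in si-NC libraries 1, 2 and 3. The si-CDCP1 values were 91.5%, 86.5% and 73.1% of the si-NC mean, so that replicate 3 lay farthest from it. The means were 8.69 ± 0.984 FPKM in si-CDCP1 and 10.4 ± 0.361 FPKM in si-NC (SD, n = 3 each), on 1187 to 2007 reads per library. The log2 difference was -0.24 (SE 0.083), with a 95% interval from -0.43 to -0.04. It did not pass in limma over all genes (adjusted p = 0.316, unadjusted p = 0.0239), where 0 of 12080 genes passed (0%). By unadjusted p it was placed 909 among the 12080 genes, of which 14.3% had an unadjusted p under 0.05 in the limma test. An exact two-sided permutation test of the 6 libraries gave p = 0.1, the smallest that 3 against 3 allows. Any gene whose groups do not overlap gets that value, Pdgfc included, so it adds nothing to the lack of overlap.

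The Pdgfra difference kept its sign when any 1 library was left out. Without si-CDCP1 replicate 3 it was -0.15 (SE 0.051; limma adjusted p = 0.233), more than 1.5 times smaller. It crossed the threshold only in limma with library weights (log2 difference -0.19, adjusted p = 0.0497), a fit that called 7.16% of all genes. The weights of si-CDCP1 replicates 1, 2 and 3 were 0.6, 5.11 and 0.165, so the si-CDCP1 side of that fit rested mostly on replicate 2. Over the 18 other settings the adjusted p ranged from 0.0497 to 0.645. Counted as reads, Pdgfra had 4301 reads in si-CDCP1 and 5634 in si-NC, a ratio of read shares of 0.842 with an exact binomial 95% interval from 0.809 to 0.876. That interval covers counting error only and leaves out the spread between cultures. In bulk RNA, fewer cells that carry a transcript and less of it per cell cannot be told apart.

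The ratio of Pdgfrb to Pdgfra FPKM was 3.23, 3.25 and 4.25 in si-CDCP1 libraries 1, 2 and 3, against 3.05, 3.02 and 2.96 in si-NC libraries 1, 2 and 3. It averaged 3.58 ± 0.585 in si-CDCP1 and 3.01 ± 0.0472 in si-NC (SD, n = 3 each), and 3.24 in si-CDCP1 without replicate 3. The beta receptor gene thus had the higher FPKM in all 6 libraries. The groups did not overlap in the ratio, which is no separate result from Pdgfra, whose groups did not overlap while those of Pdgfrb did. Among all genes that averaged 1 FPKM or more, 25% had groups that did not overlap. No test was made of the ratio.

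**Figure D2:**
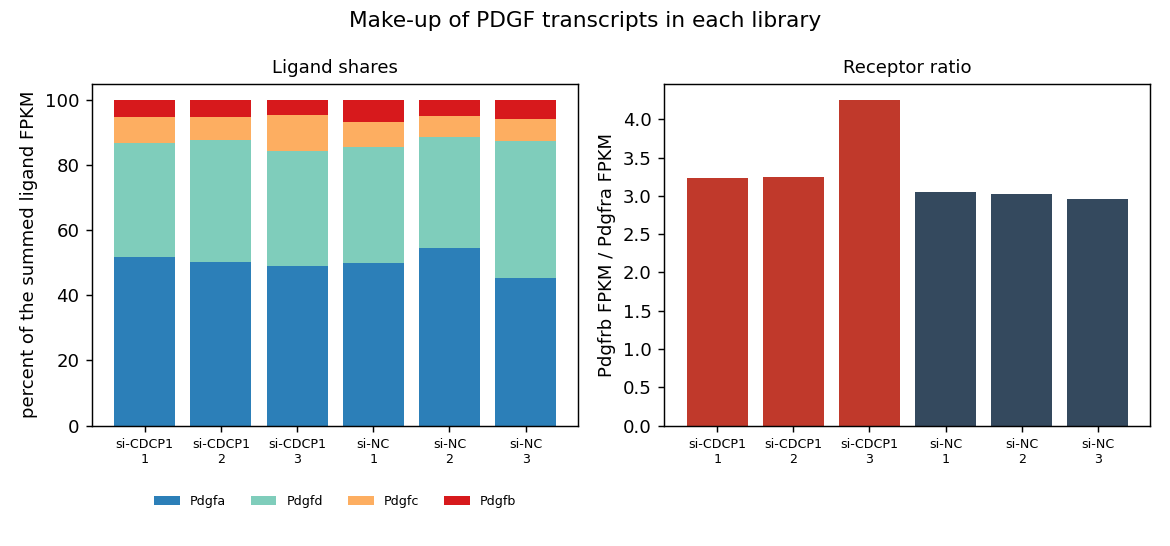
Left, the share of each ligand gene in the summed ligand FPKM (percent) of each library; right, the Pdgfrb FPKM divided by the Pdgfra FPKM in the same libraries, si-CDCP1 in red and si-NC in dark blue. Pdgfa and Pdgfd make up most of the ligand in each library, and the ratio reaches 4.25 in si-CDCP1 replicate 3, with the other 5 libraries between 2.96 and 3.25.

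Pdgfa (ENSMUSG00000025856, mm10 chromosome 5, 138976014 to 138997370, minus strand), whose product signals through the alpha receptor, had the highest FPKM of the ligand genes. It had 6.06, 6.77 and 5.10 FPKM in si-CDCP1 libraries 1, 2 and 3, against 5.90, 7.02 and 5.83 FPKM in si-NC libraries 1, 2 and 3. The groups overlapped, with si-CDCP1 replicate 3 lowest and si-NC replicate 2 highest. Means were 5.97 ± 0.839 FPKM in si-CDCP1 and 6.25 ± 0.667 FPKM in si-NC (SD, n = 3 each). The log2 difference of -0.06 (SE 0.11, 95% interval from -0.31 to 0.19) did not pass (limma adjusted p = 0.81). Its sign depended on single libraries, with 0.03 without si-CDCP1 replicate 3 and 0.02 without si-NC replicate 2.

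Pdgfd (ENSMUSG00000032006, mm10 chromosome 9, 6168584 to 6378850, plus strand) encodes the CUB-domain ligand of the beta receptor. It had 4.10, 5.04 and 3.68 FPKM in si-CDCP1 libraries 1, 2 and 3, against 4.25, 4.39 and 5.37 FPKM in si-NC libraries 1, 2 and 3. Spread within each group exceeded the gap between the group means of 4.27 ± 0.696 FPKM in si-CDCP1 and 4.67 ± 0.612 FPKM in si-NC (SD, n = 3 each). The log2 difference was -0.11 (SE 0.12, 95% interval from -0.39 to 0.17; limma adjusted p = 0.68), and -0.03 without si-CDCP1 replicate 3. Together Pdgfa and Pdgfd held most of the ligand signal: Pdgfa took 50.3% ± 1.43 in si-CDCP1 and 49.9% ± 4.48 in si-NC. Pdgfd took 35.9% ± 1.32 in si-CDCP1 and 37.3% ± 4.12 in si-NC (SD, n = 3 each).

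Pdgfc and Pdgfb had means under 1 FPKM, so they were left out of the main test and taken from the fit without a filter (26005 genes). Pdgfc (ENSMUSG00000028019, mm10 chromosome 3, 81036416 to 81214040, plus strand) encodes the CUB-domain ligand of the alpha receptor. It had 0.919, 0.952 and 1.17 FPKM in si-CDCP1 libraries 1, 2 and 3, against 0.900, 0.868 and 0.879 FPKM in si-NC libraries 1, 2 and 3. All si-CDCP1 values lay above all si-NC values, by a small margin except in replicate 3. The means were 1.01 ± 0.137 FPKM in si-CDCP1 and 0.882 ± 0.0163 FPKM in si-NC (SD, n = 3 each), on 72 to 93 reads per library. The log2 difference was 0.10 (SE 0.091, 95% interval from -0.13 to 0.32; limma adjusted p = 0.728) and 0.04 without si-CDCP1 replicate 3. The log2(FPKM + 1) scale understates differences at this level: with a pseudocount of 0.01 FPKM it was 0.19 (SE 0.19; limma adjusted p = 0.732).

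Pdgfb (ENSMUSG00000000489, mm10 chromosome 15, 79995874 to 80014977, minus strand), the ligand gene most studied in vessel injury, was the lowest of the family. It had 0.625, 0.693 and 0.477 FPKM in si-CDCP1 libraries 1, 2 and 3, against 0.801, 0.619 and 0.739 FPKM in si-NC libraries 1, 2 and 3. These stand for 45, 47 and 31 reads in si-CDCP1 and 67, 42 and 55 reads in si-NC. Every library was well above the level of 3 reads, which is at most 0.0462 FPKM for this gene, and the groups overlapped. The log2 difference was -0.11 (SE 0.089, 95% interval from -0.33 to 0.11; limma adjusted p = 0.725), and -0.05 without si-CDCP1 replicate 3. With a pseudocount of 0.01 FPKM it was -0.27 (SE 0.27; limma adjusted p = 0.728), and in voom on the reads of all 6 libraries it was -0.28 or -0.32, depending on the library sizes used. The ratio of read shares, 0.827, had an exact binomial 95% interval from 0.649 to 1.05. That interval includes 1 and covers counting error only.

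**Figure D3:**
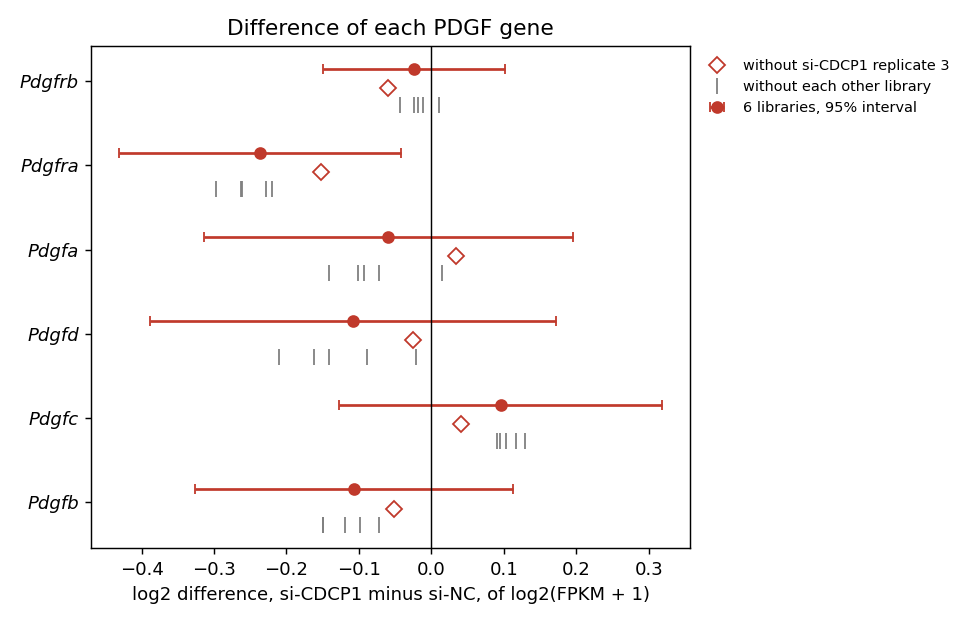
Log2 difference (horizontal axis, si-CDCP1 minus si-NC, of log2(FPKM + 1)) of each PDGF gene, with the 95% interval from limma on 6 libraries, the value without si-CDCP1 replicate 3 as an open diamond and the values without each other library as ticks. The interval of Pdgfra runs from -0.43 to -0.04 and those of the others include 0; leaving out si-CDCP1 replicate 3 brings the Pdgfra value to -0.15.

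Of the 6 genes 0 passed the adjusted threshold, with Pdgfra the only gene with an unadjusted p under 0.05 in limma. In 2 of the 6, Pdgfra lower and Pdgfc higher, the groups did not overlap. Among all genes that averaged 1 FPKM or more, 25% had groups that did not overlap, with si-CDCP1 lower in 10.6% and higher in 14.4%. Pdgfc lies just under that level, at a mean of 0.948 FPKM. Among the 26005 genes with any value above 0, si-CDCP1 was higher without overlap in 8.28%. Only 13654 of these genes averaged 0.5 FPKM or more, so that share includes many genes well below Pdgfc.

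Across the 6 libraries the genes whose log2(FPKM + 1) values followed Pdgfra most closely were Dxo and Heatr5b (Pearson r = 0.997 for each), out of 5604 genes that averaged 10 FPKM or more. They averaged 9.85 and 11.5 FPKM in si-CDCP1, against 11.6 and 13.5 FPKM in si-NC. For Pdgfrb they were Pip4k2b (r = 0.964) and Jcad (r = 0.962), and for Pdgfa Prkag1 (r = 0.977) and Bcr (r = 0.975). Those closest to Pdgfd were Aggf1 (r = 0.953) and mt-Atp6 (r = 0.952), a mitochondrial gene whose reads can be shared with nuclear copies. Values of r over 0.9 were reached by 257 genes for Pdgfra and by 44, 21 and 11 for Pdgfa, Pdgfrb and Pdgfd. These r values are descriptions over 6 libraries that share the position of si-CDCP1 replicate 3, picked as the highest among all those genes.

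The genes around the receptors were described by 8 lists, chosen with earlier results of these data known. The shares below are therefore descriptions and no test of the lists. The deposited table holds 92 of their genes, 78 were tested, and 0 passed the adjusted threshold in either direction. An unadjusted p under 0.05 was found for 11 genes with higher and 5 with lower values in si-CDCP1, 20.5% of the 78 against 14.3% of all genes tested in limma (8.94% higher and 5.31% lower). Of the 78, 66 averaged 5 FPKM or more, and at that level 16.7% of all genes had such a p in limma. Without si-CDCP1 replicate 3, 15 list genes with such a p were higher and 5 lower. These were 25.6% of the 78, against 16.6% of all genes. Among the genes of these lists named below, the differences of Ptpn12, Furin, Plat, Mapk3 and Ptpn11 changed sign without that library. All but that of Ptpn12 were under 0.05 in size. The differences of Lrp1 and Rela were -0.05 and 0.04 without that library, against -0.08 and 0.08 with it. The median log2 difference was 0.03, against 0.01 over all 12080 genes, and 0.01 in both without si-CDCP1 replicate 3. The balance of directions depended on the scaling: with libraries set to equal FPKM sums it was 5 higher and 8 lower among the 78, and 4.45% higher and 10.8% lower over all genes. Voom on the recovered reads of 5 libraries, without si-CDCP1 replicate 3, called 5 genes of the lists and 3.46% of all genes.

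Proteases that activate PDGFs were expressed at low to moderate levels, with 0 of 4 tested past the threshold. Plat, tissue plasminogen activator, which cleaves PDGF-C, averaged 13.3 ± 1.11 FPKM in si-CDCP1 and 13.2 ± 0.958 FPKM in si-NC (SD, n = 3 each). Furin, which processes PDGF-A and PDGF-B, was at 11.2 ± 0.654 FPKM in si-CDCP1 and 11.5 ± 0.830 FPKM in si-NC. Plau, urokinase, which cleaves PDGF-D, was at 2.42 ± 0.592 FPKM in si-CDCP1 and 3.38 ± 0.967 FPKM in si-NC (log2 difference -0.35, limma adjusted p = 0.43), and the furin-like Pcsk6 at 3.06 ± 0.255 FPKM in si-CDCP1 and 2.91 ± 0.0897 FPKM in si-NC.

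Among co-receptors and matrix proteins that bind PDGFs or their receptors, 0 of 7 tested passed, and the median log2 difference was -0.07. Thbs1, thrombospondin 1, had 31.7, 28.8 and 30.2 FPKM in si-CDCP1, against 38.5, 45.0 and 38.8 FPKM in si-NC. The groups did not overlap, and the log2 difference was -0.42 with all libraries and without si-CDCP1 replicate 3 (limma adjusted p = 0.238 with all). Sparc, a matrix glycoprotein that binds PDGF-B, averaged 118 ± 11.9 FPKM in si-CDCP1 and 122 ± 3.60 FPKM in si-NC (SD, n = 3 each). The Sparc log2 difference was -0.04, and -0.12 without si-CDCP1 replicate 3, which stood at 131.8 FPKM. Lrp1, a scavenger receptor that associates with the beta receptor, averaged 65.6 ± 2.33 FPKM in si-CDCP1 and 69.5 ± 5.21 FPKM in si-NC, and the neuropilin Nrp2 8.96 ± 1.48 FPKM in si-CDCP1 and 7.46 ± 0.120 FPKM in si-NC. The Nrp2 log2 difference was 0.23, and 0.11 without si-CDCP1 replicate 3, which stood at 10.7 FPKM.

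All 31 adaptors and effectors of the receptors were tested, 0 passed, and 19 had positive and 12 negative log2 differences (median 0.02). Fyn, a Src family kinase recruited by activated PDGF receptors, had 32.8, 35.1 and 41.4 FPKM in si-CDCP1, against 31.8, 30.4 and 30.1 FPKM in si-NC (log2 difference 0.23, limma adjusted p = 0.32; 0.14 without si-CDCP1 replicate 3). Map2k1, the kinase upstream of ERK, averaged 46.6 ± 2.46 FPKM in si-CDCP1 and 42.2 ± 1.08 FPKM in si-NC (SD, n = 3 each). Mapk3, which encodes ERK1, averaged 59.9 ± 3.79 FPKM in si-CDCP1 and 61.6 ± 2.85 FPKM in si-NC. Ptpn11, the phosphatase SHP2, averaged 61.0 ± 1.86 FPKM in si-CDCP1 and 60.4 ± 1.20 FPKM in si-NC.

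Of 9 phosphatases and ubiquitin ligases that switch the receptors off, 0 passed. Ptpn2, the phosphatase TC-PTP that acts on the beta receptor, averaged 17.1 ± 1.72 FPKM in si-CDCP1 and 14.5 ± 0.232 FPKM in si-NC (SD, n = 3 each; log2 difference 0.22, limma adjusted p = 0.3; 0.15 without si-CDCP1 replicate 3). Acp1, a low molecular weight phosphatase of the PDGF receptors, averaged 8.86 ± 0.218 FPKM in si-CDCP1 and 7.68 ± 0.795 FPKM in si-NC. Ptpn12, the phosphatase PTP-PEST, averaged 32.9 ± 6.56 FPKM in si-CDCP1 and 29.5 ± 0.565 FPKM in si-NC. Its log2 difference of 0.13 rested on si-CDCP1 replicate 3, at 40.4 FPKM, and was -0.02 without that library.

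Early genes that growth factors induce gave values on both sides, with 0 of 11 tested past the threshold. Myc, a growth-promoting transcription factor, had 95.03, 89.6 and 114.8 FPKM in si-CDCP1, against 79.5, 78.7 and 78.0 FPKM in si-NC (log2 difference 0.33, limma adjusted p = 0.271; 0.23 without si-CDCP1 replicate 3). Egr1, a zinc finger factor that activates the Pdgfa promoter, had 20.0, 18.2 and 22.2 FPKM in si-CDCP1, against 24.9, 27.5 and 22.6 FPKM in si-NC. Its log2 difference was -0.30 (limma adjusted p = 0.298) and -0.37 without si-CDCP1 replicate 3. Ier2, an immediate early gene, averaged 55.5 ± 2.99 FPKM in si-CDCP1 and 53.0 ± 0.596 FPKM in si-NC (SD, n = 3 each).

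Of 9 tested transcription factors linked to PDGF genes 0 passed. Hif1a, the hypoxia factor, averaged 62.6 ± 3.23 FPKM in si-CDCP1 and 55.1 ± 2.04 FPKM in si-NC, and Smad3, a TGF-beta effector, 29.4 ± 1.36 FPKM in si-CDCP1 and 33.5 ± 1.42 FPKM in si-NC (SD, n = 3 each). Klf4, a regulator of the smooth muscle phenotype, averaged 82.4 ± 21.7 FPKM in si-CDCP1 and 59.0 ± 1.84 FPKM in si-NC. Its log2 difference of 0.45 (limma adjusted p = 0.32) was 0.24 without si-CDCP1 replicate 3. The NF-kB subunit gene Rela averaged 79.9 ± 4.36 FPKM in si-CDCP1 and 75.7 ± 0.623 FPKM in si-NC.

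**Figure D4:**
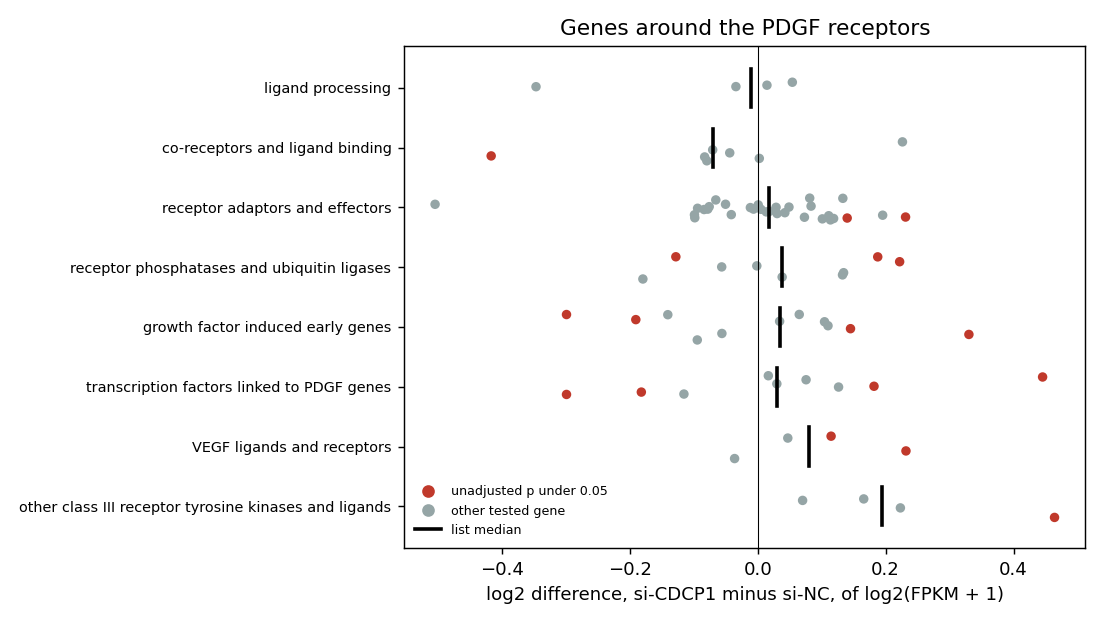
Log2 difference (horizontal axis, si-CDCP1 minus si-NC, of log2(FPKM + 1)) of each tested gene in the 8 lists, red where the unadjusted limma p was under 0.05, with the median of each list as a black bar. None of the 78 genes passed the adjusted threshold; the medians lie between -0.07 and 0.19.

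The nearest relatives of the PDGF genes were read for comparison. In the VEGF family, whose ligands share the PDGF fold, Vegfa averaged 106.8 ± 1.75 FPKM in si-CDCP1 and 98.6 ± 1.36 FPKM in si-NC, and Vegfb 44.2 ± 2.50 FPKM in si-CDCP1 and 37.4 ± 2.07 FPKM in si-NC (SD, n = 3 each). Each was above every PDGF gene in level, and their log2 differences were 0.11 and 0.23 (limma adjusted p = 0.32 and 0.269). Among the other class III receptor kinases, Kit, the stem cell factor receptor, had 5.63, 5.42 and 9.18 FPKM in si-CDCP1, against 4.11, 4.60 and 4.78 FPKM in si-NC. Its log2 difference was 0.46 (limma adjusted p = 0.323) and 0.25 without si-CDCP1 replicate 3. Csf1, the macrophage growth factor, averaged 117.9 ± 16.0 FPKM in si-CDCP1 and 100.3 ± 5.02 FPKM in si-NC, and the Kit ligand gene Kitl 7.18 ± 1.22 FPKM in si-CDCP1 and 6.25 ± 0.410 FPKM in si-NC. Their log2 differences were 0.22 and 0.17, and 0.11 and 0.06 without si-CDCP1 replicate 3. Both families had 4 tested genes and 0 past the threshold.

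Markers of the cell types that use PDGF receptors did not settle the identity of the cultures. Of 10 smooth muscle markers 2 were tested. Acta2, smooth muscle actin, had 42.0, 34.4 and 64.2 FPKM in si-CDCP1, against 35.8, 37.0 and 39.6 FPKM in si-NC. Its log2 difference was 0.27 (limma adjusted p = 0.539), and 0.02 without si-CDCP1 replicate 3. Smtn, smoothelin, averaged 8.84 ± 1.24 FPKM in si-CDCP1 and 8.26 ± 0.289 FPKM in si-NC (SD, n = 3 each). The Smtn log2 difference was 0.08, and -0.02 without si-CDCP1 replicate 3. The other 8 were low, and the contractile genes Myh11, Tagln and Cnn1 had means under 0.2 FPKM in both groups, so the markers were mixed as to the smooth muscle label. The summed level of that list ran from 45.2 to 76.3 FPKM in si-CDCP1 and from 46.7 to 51.2 FPKM in si-NC. Most of that sum was Acta2. Of 8 pericyte markers 4 were tested, led by Mcam and Notch3; Rgs5 averaged 0.0618 ± 0.0292 FPKM in si-CDCP1 and 0.124 ± 0.0412 FPKM in si-NC (SD, n = 3 each), and Abcc9 was at 0 in all libraries. The pericyte sum ran from 22.7 to 24.4 FPKM in si-CDCP1 and from 23.9 to 26.2 FPKM in si-NC. Of 9 fibroblast markers 4 were tested, led by the collagen genes Col1a1 and Col1a2, while Tcf21 was at 0 throughout and Lum at a mean of 0 FPKM in si-CDCP1 and 0.00678 FPKM in si-NC. The fibroblast sum ran from 385.7 to 443.2 FPKM in si-CDCP1 and from 380.3 to 421.2 FPKM in si-NC. Most of it came from Col1a1, at 278 FPKM in si-CDCP1 and 279 FPKM in si-NC, and Col1a2, at 113.5 and 104.2 FPKM. The sums of the lists therefore do not rank the cell types. The part of these cell types in the Pdgfra values was not tested.

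Markers of endothelium, platelets and macrophages, which are known sources of PDGF-B, were low. Of 7 endothelial and 5 megakaryocyte and platelet markers 0 were tested; Cdh5 and Tie1 were at 0 in all libraries. The endothelial sum ran from 1.00 to 1.05 FPKM in si-CDCP1 and from 0.729 to 0.972 FPKM in si-NC, with Vwf and Tek as the largest terms. The platelet sum ran from 1.21 to 1.58 FPKM in si-CDCP1 and from 1.22 to 2.16 FPKM in si-NC, led by Itga2b and Gp1ba. Of 7 macrophage markers 2 were tested, and their groups stood apart in opposite directions without passing. Groups that did not overlap were found in 25% of all genes that averaged 1 FPKM or more. Cd68 averaged 0.822 ± 0.0936 FPKM in si-CDCP1 and 1.27 ± 0.0462 FPKM in si-NC (limma adjusted p = 0.298). Lyz2 averaged 2.11 ± 0.229 FPKM in si-CDCP1 and 1.65 ± 0.0824 FPKM in si-NC (limma adjusted p = 0.34). Adgre1 and Itgam were at 0 in all libraries, and the sum ran from 2.68 to 3.26 FPKM in si-CDCP1 and from 2.89 to 3.07 FPKM in si-NC.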

How the data were processed

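The authors deposited FPKM for 54012 genes in 6 libraries, with gene lengths and mouse Ensembl identifiers, per the file headers; the build is mm10, per the submitters' processing notes. For the aligner, the counting tool and the use of strand: not given in the sources used here. Every FPKM times the gene length was a whole multiple of 1 step per library (100% of values above 0 within 0.01 of a whole read), which gave the reads. The implied library totals differ from the read sums, so the deposited values carry a further scaling between libraries.

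The test was limma 3.58.1 (R 4.3.3) with trend on log2(FPKM + 1), two-sided, over the 12080 genes averaging 1 FPKM or more, with Benjamini-Hochberg adjustment over all of them and a threshold of 0.05. It was also run on simulated reads with the same spread for every gene and no outlying library. That run does not cover data in which a library stands apart. Pdgfb and Pdgfc came from the fit without a filter. The members and lists were chosen with earlier results of these data known. Genes named from a list are the 2 with the smallest p and the 2 with the highest mean, since 0 passed; any other gene is named with its values already known. Alternatives were other pseudocounts, filters, scalings, library weights, a replicate block, each library left out, and limma voom on the reads (at least 10 reads in 3 libraries), the last added after the data had been seen.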

Additional observations from a re-analysis of the deposited data

How the results depend on the processing

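The count of genes past the adjusted threshold, 0 as reported, was 7 without a filter, 4 with a mean of at least 5 FPKM, 1 with equal FPKM sums, 2 with quantile normalisation and 865 with library weights, and 0 to 1 with single libraries left out (1 without si-NC replicate 2 and 1 without si-NC replicate 3). With voom it was 5 on the deposited scaling, 7 with summed reads as library size and 493 on 5 libraries without si-CDCP1 replicate 3. Of the pathway genes 8 were called with library weights (Vegfa, Vegfb, Myc, Hif1a, Fyn and Ptpn2 higher, Thbs1 and Egr1 lower; 8 of 78, against 7.16% of all 12080 genes) and 5 in that 5-library voom fit (Myc, Klf4 and Kit higher, Thbs1 and Egr1 lower; 5 of 85, against 3.46% of all 14267 genes), against 0 as reported. Of the PDGF genes only Pdgfra passed anywhere, at -0.19 with library weights. The si-CDCP1 side of the weighted fit rested mostly on replicate 2 (weight 5.11, against 0.6 for replicate 1 and 0.165 for replicate 3). The Pdgfa difference turned positive with library weights (0.090) and in voom on 5 libraries (0.045), and ran from -0.14 to 0.034 with single libraries left out; Pdgfd was 0.054 with library weights. Pdgfrb ran from -0.060 to 0.011 with single libraries left out, positive without si-CDCP1 replicate 2. Pdgfb stayed negative, from -0.32 in voom with summed reads to -0.04 with library weights. The cause was not tested. The planned count models were not run, since the values are FPKM; voom, added after the data had been seen, took their place. With the replicate number as a block 1 gene was called and Pdgfra had an adjusted p of 0.378 in limma. Deviations of same-numbered libraries correlated at -0.02, 0.03 and 0.02. With 3 libraries in each group and si-CDCP1 replicate 3 standing apart, these values cannot decide whether the number pairs the samples. Depth limits Pdgfb most, with 31 to 67 reads per library.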

Other observations

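Both receptor genes lie beside related receptor kinase genes on mm10, and these neighbours, chosen by position, differed in level. Right of Pdgfra on chromosome 5 the next coding genes are Kit, 376701 bases away, and Kdr, a VEGF receptor gene, 734612 bases away. Kdr averaged 0.112 ± 0.0152 FPKM in si-CDCP1 and 0.165 ± 0.0132 FPKM in si-NC (SD, n = 3 each), while Kit stood at 6.74 ± 2.11 FPKM in si-CDCP1 and 4.49 ± 0.347 FPKM in si-NC. Right of Pdgfrb on chromosome 18 lies Csf1r, 20511 bases away, at 0.0125 ± 0.000649 FPKM in si-CDCP1 and 0.0395 ± 0.0310 FPKM in si-NC, close to undetected beside a receptor gene at 31.0 FPKM. The next gene, Hmgxb3, averaged 11.8 ± 0.615 FPKM in si-CDCP1 and 11.2 ± 0.374 FPKM in si-NC. Left of Pdgfrb, Cdx1 and Slc6a7 were at 0 in all libraries.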
